A study of Oryza sativa with 4 samples.

Results

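The genes described here are those whose deposited descriptions name enzymes and proteins of phenylpropanoid, lignin and flavonoid metabolism. They were found by searching the transcript descriptions, without regard to case, for phenylalanine ammonia, cinnamyl, cinnamoyl, coumarate, caffeoyl, caffeic, laccase, chalcone, isoflavone reductase, flavanone, flavonol, anthocyanidin and dirigent, and by leaving out descriptions that name a cytochrome P450. The search found 133 of 37972 transcripts, which belonged to 120 of 31414 genes. Their FPKM (fragment counts divided by transcript length and by mapped reads) were read per transcript and as the sum over all transcripts of each gene. Since FPKM are scaled for length, levels of different genes can be set side by side.

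RNA-sequencing of rice leaves gave 2 libraries from NT (non-transgenic) and 2 from OsNAC14OX plants, which carry the NAC transcription factor gene OsNAC14 under the PGD1 promoter. All plants were grown without drought treatment, and the transgenic plants came from a single line in the T4 generation. The labels disagree with each other, giving an age of 20 days beside 2 weeks and a spelling of the cultivar Nipponbare beside Nakdong, which also stands in the column names of the NT libraries. The methods give the younger age and Nakdong. The study calls its duplicates biological samples, and the sources used here do not say how many plants went into each. The p-values weigh the difference between the groups against the spread between these libraries, which limma estimates in part from all features tested. The column names of the NT libraries hold an added number that those of OsNAC14OX lack. No source explains it, and a batch that it might mark cannot be told apart from the overexpression. The names of the OsNAC14OX columns end in different numbers, and whether these stand for sister lines or plants of the single line is not explained either. OsNAC14 (Os01g0675800) itself stood at 3.16 and 3.70 FPKM in NT and at 16.4 and 16.3 FPKM in OsNAC14OX, and the difference passed the test (log2 fold change 2.00, adjusted p = 0.0153, limma).

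In plants, the phenylpropanoid pathway starts with the removal of ammonia from phenylalanine. The resulting cinnamic acid is hydroxylated, activated with coenzyme A and methylated, and is then either reduced to monolignols, which laccases and peroxidases join into the lignin of secondary walls, or condensed by chalcone synthase into flavonoids. In grass leaves, lignin stiffens vascular and supporting tissue, and flavonoids absorb ultraviolet light and serve in defense.

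The members fell into 16 role groups and lay on all 12 chromosomes. The spans of 30 member genes overlapped that of another gene, and reads of such genes may not be fully told apart. A gene was tested where 2 or more of the 4 libraries had a summed FPKM of at least 1. Of the 120 genes, 96 passed this filter, and the other 24 reached at most 1.23 FPKM in any library. The members' summed FPKM was 4309 and 4161 in NT and 4484 and 4456 in OsNAC14OX. This was 0.573% and 0.543% of all FPKM in NT and 0.610% and 0.595% in OsNAC14OX, so that the share of these genes was slightly higher in both OsNAC14OX libraries. The 5 most abundant genes held 60.3% and 56.6% of the members' FPKM in NT and 55.3% and 59.5% in OsNAC14OX.

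**Figure D1:**
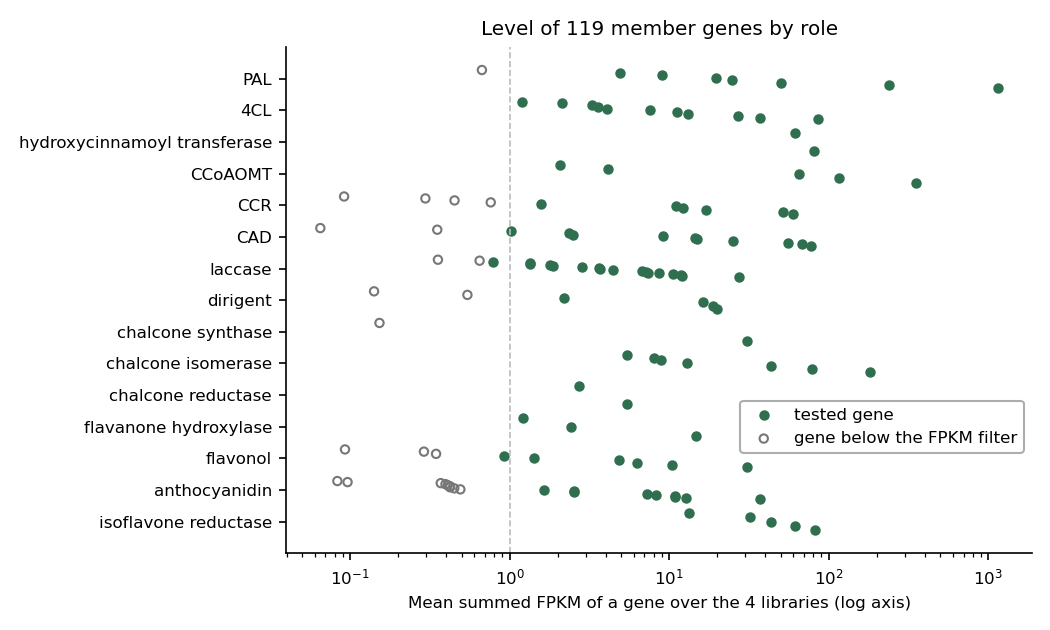
Mean summed FPKM over the 4 libraries (log axis) of the member genes, by role, leaving out 1 gene that is not reported here. Filled points are tested genes and open points the 24 genes below the filter. The dashed line marks 1 FPKM. A PAL gene and a CCoAOMT gene stand farthest to the right, at means of 1153 and 354 FPKM.

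Whether the overexpression of OsNAC14 went with a change in these genes was addressed by comparing OsNAC14OX with NT. A call required an adjusted p under 0.05 (limma on normalized log2(FPKM + 1), two-sided, Benjamini-Hochberg over all genes or transcripts tested) and a fold of at least 2 on that scale. Of the 96 tested member genes, 2 rose and 2 fell, and 92 were not called. The genes that rose were an isoflavone reductase-like gene and a cinnamyl alcohol dehydrogenase gene, and those that fell were a second isoflavone reductase-like gene and a chalcone reductase homologue. The share was 2.08% in each direction, against a background of 0.314% of the 25811 genes tested called higher and 0.411% called lower. Of the 104 member transcripts tested, 2 rose and 2 fell (1.92% each), against 0.251% and 0.304% of the 30251 transcripts tested.

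The median log2 fold change was 0.01 over the member genes and 0.00 over all genes tested. At an unadjusted p under 0.05, 12 member genes (12.5%) were higher and 15 (15.6%) lower, against 4.13% and 5.53% of all genes tested. These shares of all genes are also the background for the counts by role and by list below. Some of these members drew most of their summed FPKM from transcripts outside the search, as given below. Among member transcripts, 22 of 104 (21.2%) had such a p, against 9.4% of all transcripts tested. By levels alone, 16 members (16.7%) had both OsNAC14OX libraries above both NT libraries and 26 (27.1%) had both below. These last shares lay close to the background of 16.2% and 26.6%.

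**Figure D2:**
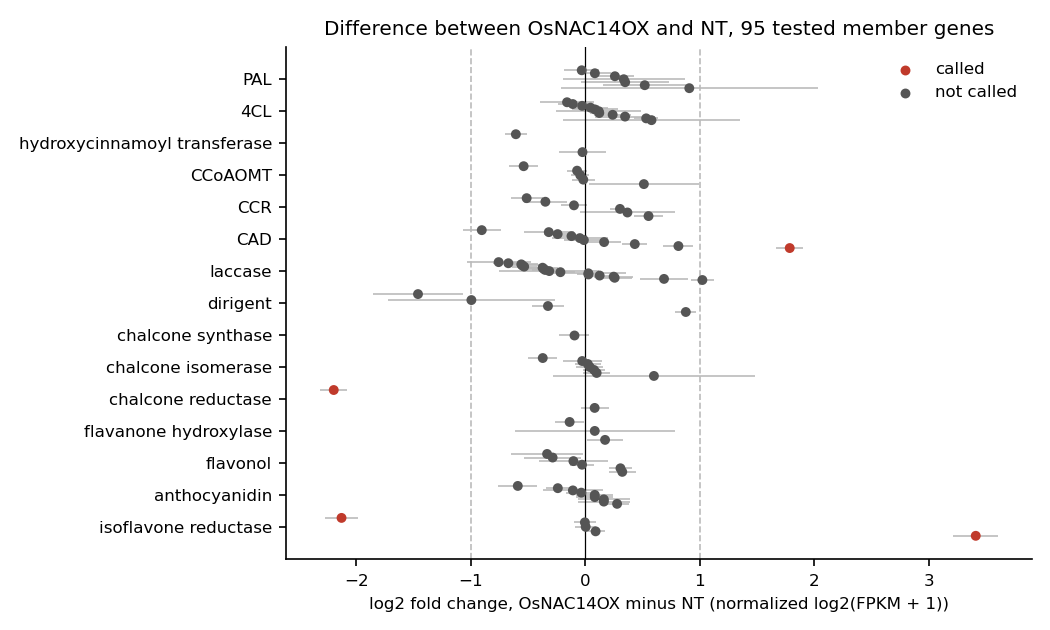
Difference between OsNAC14OX and NT on the normalized log2(FPKM + 1) scale for the tested member genes, by role, leaving out 1 uncalled gene that is not reported here, with bars of 1 standard error. Red points are the 4 called genes and dashed lines mark a fold of 2. The called genes lie at 3.41, 1.79, -2.13 and -2.20.

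The largest difference was in a pair of neighbouring genes on chromosome 12 that share the description of an isoflavone reductase-like protein 1. This family of reductases includes the isoflavone reductases of legumes and the pinoresinol-lariciresinol reductases of lignan synthesis. Os12g0263600 (chromosome 12, bases 9286790 to 9291494 of IRGSP-1.0) stood at 8.08 and 12.2 FPKM in NT and at 113.6 and 111 FPKM in OsNAC14OX. Both OsNAC14OX libraries lay far above both NT libraries. The log2 fold change was 3.41 ± 0.20 (SE, n = 2 libraries a group, adjusted p = 0.0184, limma), which is 10.6-fold higher.

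Os12g0263800 (bases 9299518 to 9318122), which starts 8.02 kb after its neighbour ends, moved the opposite way. Its summed FPKM was 69.5 and 72.8 in NT and 13.3 and 17.2 in OsNAC14OX. The groups did not overlap, and the log2 fold change was -2.13 ± 0.15 (SE, n = 2, adjusted p = 0.0248, limma), which is 4.38-fold lower. Its 3 transcripts differed among themselves. The transcript with the isoflavone reductase description, Os12t0263800-03, stood at 46.4 and 48.5 FPKM in NT and at 1.16 and 1.38 FPKM in OsNAC14OX, a log2 fold change of -4.37 (adjusted p = 0.00505, limma). Os12t0263800-01, described only by a cDNA clone, stood at 13.2 and 14.1 FPKM in NT and at 1.21 and 1.12 FPKM in OsNAC14OX, and was called lower as well. Os12t0263800-02, also described by a clone, stood at 9.98 and 10.3 FPKM in NT and at 10.9 and 14.7 FPKM in OsNAC14OX and was not called. The fall was thus measured in the transcripts -03 and -01 and not in -02.

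Summed over the pair, the level was 77.6 and 85.0 FPKM in NT and 126.9 and 128.1 FPKM in OsNAC14OX, so the sum was higher in both OsNAC14OX libraries. Reads that match both of these like-named genes could be assigned to either, and the sources used here do not say how the counting treated them. Os12g0263200, the next gene before the pair and described as a pinoresinol-lariciresinol reductase, stood at 22.6 and 19.9 FPKM in NT and at 13.9 and 13.4 FPKM in OsNAC14OX (adjusted p = 0.224, limma). Os12g0264500, the next gene after it, had a log2 fold change of -0.01. The other 3 isoflavone reductase genes had log2 fold changes between 0.00 and 0.09. Of these, Os01g0106400 was the most abundant at 76.7 and 83.5 FPKM in NT and 80.8 and 84.8 FPKM in OsNAC14OX.

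Cinnamyl alcohol dehydrogenase (CAD) carries out the last reduction to monolignols, and 10 of its 12 genes were tested. Os09g0400100 (chromosome 9, bases 13987066 to 13988149) stood at 10.1 and 11.6 FPKM in NT and at 37.3 and 41.4 FPKM in OsNAC14OX. The groups lay well apart, with a log2 fold change of 1.79 ± 0.12 (SE, n = 2, adjusted p = 0.0236, limma), which is 3.45-fold higher. It belongs to a run of 6 CAD genes within 19.9 kb, and the whole of its 1084 bases lies inside the span of Os09g0400000, so reads of the overlapping gene models cannot be fully told apart. Os09g0400000 stood at 10.3 and 11.2 FPKM in NT and at 17.6 and 21.1 FPKM in OsNAC14OX, higher in both libraries but not called (log2 fold change 0.81 ± 0.13, adjusted p = 0.172).

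Further along the run, Os09g0400300 stood at 45.4 and 49.8 FPKM in NT and at 59.6 and 67.1 FPKM in OsNAC14OX and was not called (log2 fold change 0.43, adjusted p = 0.338, limma). Os09g0399800 and Os09g0400400 at the ends of the run had log2 fold changes of -0.32 and -0.12. Os09g0400200, which overlaps Os09g0400300 over 1792 bases, was below the filter, with 0.184 and 0.231 FPKM in NT and 0.466 and 0.525 FPKM in OsNAC14OX. The higher levels were therefore in the middle of the run. The most abundant CAD genes lie elsewhere. Os02g0187800 stood at 77.0 and 80.0 FPKM in NT and at 65.5 and 87.9 FPKM in OsNAC14OX. Os01g0528800 stood at 65.2 and 64.2 FPKM in NT and at 80.5 and 61.6 FPKM in OsNAC14OX, and in both of these genes the NT levels lay between the OsNAC14OX levels. Os11g0622800, described as a putative CAD 4 and named after its values were seen, had 12.2 and 12.5 FPKM in NT and 5.06 and 7.03 FPKM in OsNAC14OX (adjusted p = 0.224).

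Chalcone reductase, known from legumes, acts together with chalcone synthase to give chalcones that lack a hydroxyl group. Os10g0113000, a chalcone reductase homologue (chromosome 10, bases 866391 to 868385), stood at 4.92 and 5.28 FPKM in NT and at 0.240 and 0.407 FPKM in OsNAC14OX. Both OsNAC14OX libraries were below 1 FPKM. The log2 fold change was -2.20 ± 0.12 (SE, n = 2, adjusted p = 0.0163, limma), which is 4.59-fold lower on the log2(FPKM + 1) scale, and that scale understates the change of a gene at so low a level. A hypothetical gene, Os10g0113050, lies inside its span over 731 bases and was called lower too, from 8.27 and 9.15 FPKM in NT to 0.804 and 0.871 FPKM in OsNAC14OX. The reads of this pair cannot be fully told apart either. The other chalcone reductase homologue, Os04g0167800, stood at 5.16 and 5.47 FPKM in NT and at 5.11 and 6.10 FPKM in OsNAC14OX, so its groups overlapped.

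The 4 called members were also fitted with each library left out. Every such fit, here and below, holds a single library in 1 group, so the spread within that group was not measured. Among transcripts, Os12t0263800-03 alone was called without OsNAC14OX replicate 1. Without NT replicate 1 the adjusted p of these genes lay between 0.0837 and 0.153, and without NT replicate 2 between 0.2 and 0.419. In these fits none of the 25811 genes was called by limma, although 12 and 15 member genes (12.5% and 15.6%) had an unadjusted p under 0.05, against 6.17% and 3.74% of all genes tested. The groups of the 4 called genes did not overlap in FPKM, so leaving out 1 library could not reverse their direction. With each library left out, the log2 fold changes ranged from 3.15 to 3.67 for Os12g0263600 and from -2.31 to -1.95 for Os12g0263800.

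**Figure D3:**
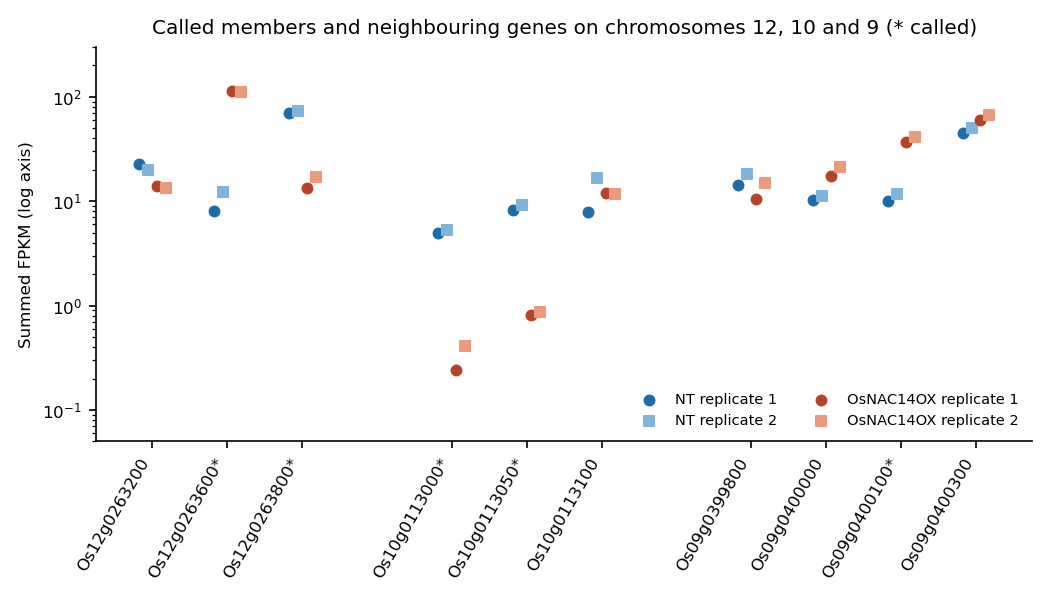
Summed FPKM (log axis) in each of the 4 libraries for the 4 called members and genes next to them on chromosomes 12, 10 and 9, with called genes starred. Blue points are NT and red points OsNAC14OX, circles replicate 1 and squares replicate 2. On chromosome 12 the adjacent pair exchanged places, from 8.08 and 12.2 to 113.6 and 111 FPKM in Os12g0263600 and from 69.5 and 72.8 to 13.3 and 17.2 FPKM in Os12g0263800.

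At the entry of the pathway, phenylalanine ammonia-lyase (PAL) makes cinnamic acid. None of the 7 tested PAL genes was called (limma, 0 at an unadjusted p under 0.05), and in each of them the levels of the groups overlapped. Os02g0626100 was the most abundant member of all, at 1250 and 982 FPKM in NT and 1151 and 1229 FPKM in OsNAC14OX. Os02g0626400 followed at 234 and 216 FPKM in NT and 281 and 223 FPKM in OsNAC14OX, and Os04g0518100 at 54.3 and 48.2 FPKM in NT and 44.3 and 54.6 FPKM in OsNAC14OX. Summed per gene, the log2 fold changes of these abundant genes were 0.08, 0.26 and -0.03. The 3 PAL transcripts of Os02g0626100 moved in different directions, and none was called. Os02t0626100-01 and -02 were higher in both OsNAC14OX libraries (log2 fold changes 0.22 and 0.61), and -03 was lower in both (-0.26). Of these, -02 had an unadjusted p of 0.0207 (limma). Os02g0626100 and Os02g0626400 lie with Os02g0626600 and Os02g0627100 in a run of 4 PAL genes over 35.6 kb of chromosome 2, and the levels of these last genes differed between the OsNAC14OX replicates as described further on.

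4-coumarate:CoA ligase (4CL) activates the hydroxycinnamic acids, and its group also takes in genes described as like it. All 11 were tested and none was called (limma, 1 at an unadjusted p under 0.05). Os02g0177600 was the most abundant, at 82.3 and 83.7 FPKM in NT and 84.8 and 90.3 FPKM in OsNAC14OX, and Os06g0656500 and Os04g0683700 followed with means of 37.3 and 26.9 FPKM. The smallest p was that of Os01g0901600, at 2.42 and 2.63 FPKM in NT and 3.84 and 4.19 FPKM in OsNAC14OX (log2 fold change 0.53, adjusted p = 0.244, limma). It was higher in both OsNAC14OX libraries, by less than 2-fold.

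Both genes described as hydroxycinnamoyltransferases were tested and neither was called, with 1 lower at an unadjusted p under 0.05. Os04g0500700 stood at 78.8 and 71.9 FPKM in NT and at 47.3 and 49.0 FPKM in OsNAC14OX, lower in both libraries but not called (log2 fold change -0.61 ± 0.09, adjusted p = 0.157, limma). Os02g0611800 stood at 74.7 and 89.9 FPKM in NT and at 93.0 and 65.2 FPKM in OsNAC14OX, and its groups overlapped.

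Caffeoyl-CoA O-methyltransferase (CCoAOMT) methylates the coenzyme A ester on the way to guaiacyl units of lignin. None of its 5 genes was called (limma, 1 lower at an unadjusted p under 0.05). Os08g0498100 stood at 354 and 382 FPKM in NT and at 327 and 354 FPKM in OsNAC14OX, and Os06g0165800 at 114 and 128 FPKM in NT and 109 and 112 FPKM in OsNAC14OX. Both abundant genes differed by less than 0.1 on the log2 scale. Os09g0481400 had the smallest p of the CCoAOMT genes, at 4.61 and 5.64 FPKM in NT and 2.95 and 3.36 FPKM in OsNAC14OX (log2 fold change -0.54, adjusted p = 0.309).

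Cinnamoyl-CoA reductase (CCR) is the entry to monolignols, and 6 of its 10 genes were tested. None was called, with 2 higher and 1 lower at an unadjusted p under 0.05. Os09g0419200 stood at 46.3 and 51.7 FPKM in NT and at 65.6 and 76.4 FPKM in OsNAC14OX (log2 fold change 0.55, adjusted p = 0.295, limma), but only 1.23% of its FPKM came from the transcript with the CCR description. That transcript, Os09t0419200-02, was below the filter, at 0.883 and 0.843 FPKM in NT and 0.707 and 0.509 FPKM in OsNAC14OX, and the rest came from Os09t0419200-01, described as an NAD(P)-binding domain protein. Os08g0441500 stood at 45.5 and 47.5 FPKM in NT and at 55.1 and 58.5 FPKM in OsNAC14OX (log2 fold change 0.30, adjusted p = 0.412). Summed per gene, both were higher in both OsNAC14OX libraries, by less than 2-fold, whereas the CCR transcript of the former was lower in both. Os01g0283600 was lower in both, from 1.84 and 2.25 FPKM to 0.914 and 1.28 FPKM (adjusted p = 0.384). Below the filter and with no test, Os02g0811800 was listed at 0.934 and 0.692 FPKM in NT and at 0.108 and 0.0709 FPKM in OsNAC14OX.

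Laccases are copper oxidases that couple monolignols in the wall. They formed the largest group, with 17 of 19 genes tested and none called. By limma, 2 were higher and 6 lower at an unadjusted p under 0.05, and 9 had both OsNAC14OX libraries below both NT libraries while 3 had both above. Of all genes tested, 4.13% were higher and 5.53% lower at that p. Both OsNAC14OX libraries lay below in 26.6% of all genes tested and above in 16.2%. The median log2 fold change of the laccases was -0.31, beside 0.00 over all genes tested. These counts are of summed genes. They include Os01g0842400 and Os01g0850700, whose transcripts with the laccase description had overlapping groups.

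Os01g0850700, described as laccase-7, was the most abundant laccase gene by its mean summed FPKM. It stood at 18.9 and 17.2 FPKM in NT and at 39.2 and 34.9 FPKM in OsNAC14OX, with a log2 fold change of 1.02 ± 0.10 (SE, n = 2) and an adjusted p of 0.0583 (limma). The transcript with the laccase description, Os01t0850700-01, held only 6.42% of this gene's FPKM. It stood at 1.66 and 0.769 FPKM in NT and at 1.43 and 3.21 FPKM in OsNAC14OX, so its groups overlapped. The rest came from a transcript described as a cupredoxin domain protein, Os01t0850700-02, at 17.2 and 16.4 FPKM in NT and 37.8 and 31.7 FPKM in OsNAC14OX. The neighbouring genes Os01g0850550 and Os01g0850800, which are laccases too, had log2 fold changes of 0.13 and 0.25. Without OsNAC14OX replicate 2, Os01g0850700 was called higher.

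Os01g0842500 stood at 15.2 and 13.6 FPKM in NT and at 8.29 and 10.4 FPKM in OsNAC14OX (log2 fold change -0.56, adjusted p = 0.362, limma). Os01g0842400 stood at 13.6 and 13.8 FPKM in NT and at 11.1 and 9.55 FPKM in OsNAC14OX (log2 fold change -0.35, adjusted p = 0.443). Its laccase transcript, Os01t0842400-01, stood at 9.68 and 9.30 FPKM in NT and at 9.80 and 8.78 FPKM in OsNAC14OX, and the difference lay in Os01t0842400-02, described only by a cDNA clone, at 3.86 and 4.52 FPKM in NT and 1.32 and 0.771 FPKM in OsNAC14OX. Os11g0108650 was at 1.11 and 1.31 FPKM in NT and at 0.488 and 0.246 FPKM in OsNAC14OX (log2 fold change -0.67, adjusted p = 0.266). Summed per gene, each of these was lower in both OsNAC14OX libraries, by less than 2-fold on the log2(FPKM + 1) scale. The whole span of Os11g0708100, described as laccase-22, lies within that of a hypothetical gene, Os11g0708000, which was called lower. The laccase stood at 8.51 and 7.05 FPKM in NT and at 5.09 and 6.28 FPKM in OsNAC14OX, and the hypothetical gene at 46.2 and 49.1 FPKM in NT and at 5.50 and 7.02 FPKM in OsNAC14OX.

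**Figure D4:**
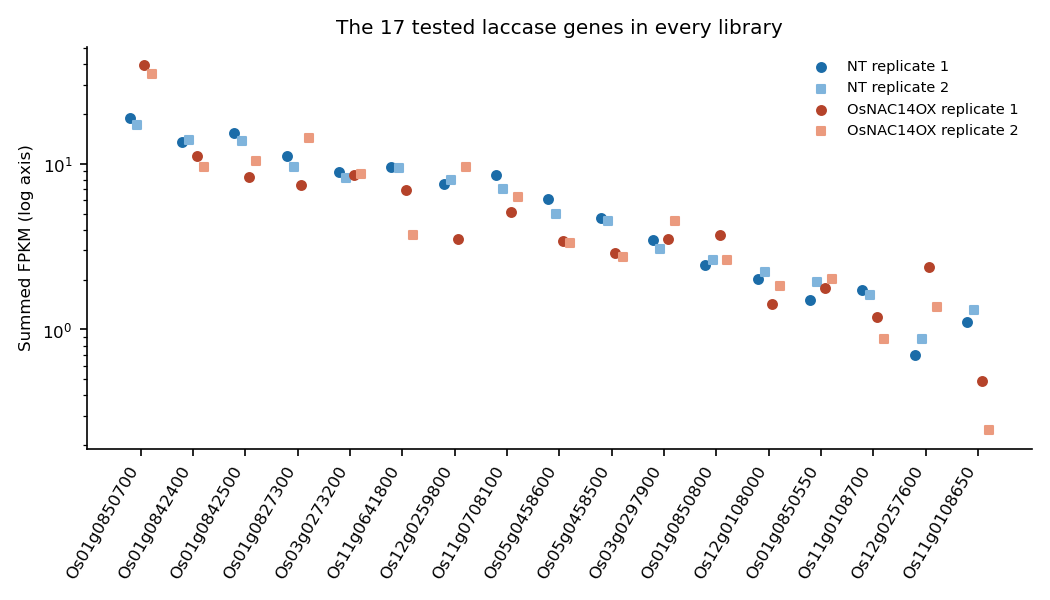
Summed FPKM (log axis) of the 17 tested laccase genes in each library, ordered by mean level. Blue points are NT and red points OsNAC14OX, circles replicate 1 and squares replicate 2. The gene at the left, Os01g0850700, stands at 39.2 and 34.9 FPKM in OsNAC14OX against 18.9 and 17.2 FPKM in NT. Its transcript with the laccase description holds 6.42% of its FPKM. Of the others, 9 have both OsNAC14OX points below both NT points, as had 26.6% of all genes tested.

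Dirigent proteins steer the coupling of monolignol radicals into lignans. Of the 6 genes described as dirigent or dirigent-like, 4 were tested and none was called, with 1 higher and 1 lower at an unadjusted p under 0.05. Os07g0643800 stood at 13.2 and 14.4 FPKM in NT and at 25.4 and 26.2 FPKM in OsNAC14OX (log2 fold change 0.88 ± 0.09, adjusted p = 0.0651, limma). Os10g0334500 stood at 27.9 and 27.5 FPKM in NT and at 5.99 and 14 FPKM in OsNAC14OX (log2 fold change -1.46 ± 0.39, adjusted p = 0.38). The first was higher and the second lower in both OsNAC14OX libraries, and the second spread widely between them.

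In the flavonoid branch, 1 of 2 genes described as chalcone synthases passed the filter. Os11g0530600, which stood at 30.8 and 32.7 FPKM in NT and at 32.7 and 25.8 FPKM in OsNAC14OX, was not called (adjusted p = 0.845, limma). It overlaps a hypothetical gene, Os11g0530650, over 874 bases. That gene stood at 53.4 and 58.8 FPKM in NT and at 61.3 and 51.9 FPKM in OsNAC14OX. Os11g0529900 stayed at or below 0.208 FPKM. Chalcone isomerase closes the flavanone ring, and none of its 7 genes, domain proteins included, was called (1 lower at an unadjusted p under 0.05). Os03g0819600, the gene described as the enzyme itself, stood at 161 and 200.3 FPKM in NT and at 177 and 188 FPKM in OsNAC14OX. Os11g0116300 and Os12g0115700 had means of 78.4 and 43.8 FPKM. The smallest p in this group was that of Os07g0571600, at 9.66 and 8.82 FPKM in NT and 7.34 and 6.24 FPKM in OsNAC14OX (log2 fold change -0.37, adjusted p = 0.484, limma).

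Downstream, 3 flavanone hydroxylase genes, 6 of 9 flavonol genes (dihydroflavonol reductases, a glucosyltransferase and sulfotransferases) and 9 of 18 anthocyanidin genes (leucoanthocyanidin dioxygenases, reductases and glucosyltransferases) were tested. None was called, and at an unadjusted p under 0.05 the counts were 0 flavanone hydroxylase genes, 2 flavonol genes, both higher, and 1 anthocyanidin gene, lower. The dihydroflavonol reductase-like Os09g0491820 stood at 27.9 and 27.3 FPKM in NT and at 32.0 and 35.8 FPKM in OsNAC14OX (log2 fold change 0.31, adjusted p = 0.479, limma), and Os08g0183900 at 4.17 and 4.28 FPKM in NT and 5.0 and 5.89 FPKM in OsNAC14OX (log2 fold change 0.32, adjusted p = 0.517). Both were a little higher in both OsNAC14OX libraries, but the transcript with the reductase description held only 6.23% of the FPKM of Os09g0491820, at 1.70 and 1.70 FPKM in NT and 1.77 and 2.50 FPKM in OsNAC14OX. The rest came from a transcript described as an NAD(P)-binding domain protein. Os05g0127500, a leucoanthocyanidin dioxygenase-like gene, was at 2.19 and 2.18 FPKM in NT and at 0.80 and 1.4 FPKM in OsNAC14OX (log2 fold change -0.59, adjusted p = 0.409). The anthocyanidin reductase-like gene Os04g0630800 was at 6.41 and 6.71 FPKM in NT and at 8.48 and 7.54 FPKM in OsNAC14OX (adjusted p = 0.535).

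Of the remaining genes in these groups, Os04g0581000 and Os02g0767300, both described as flavanone 3-hydroxylases, had means of 1.21 and 2.42 FPKM. Os03g0184600 and Os07g0148200 of the flavonol group had means of 10.5 and 6.26 FPKM, and the glucosyltransferase genes Os07g0503600 and Os05g0527800 had means of 36.9 and 12.7 FPKM, of which the member transcript of the latter held 3.08%. All 263 bases of Os07g0503600 lie within the span of Os07g0503500, so the reads of these 2 gene models may not be fully told apart. Some leucoanthocyanidin dioxygenase genes cannot be read singly. On chromosome 6, a run of 3 such genes over 9.6 kb is followed by another of the same length, and each of the 3 pairs had identical values in every library, such as Os06g0176850 and Os06g0178650 with a mean of 10.9 FPKM.

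Replicates differed more within OsNAC14OX than within NT. Over the member genes the median absolute difference between replicates was 0.25 on the log2 scale in OsNAC14OX and 0.12 in NT, against 0.16 and 0.10 over all genes tested. At a fold of 2, replicate 1 of OsNAC14OX was higher than replicate 2 in 8 member genes (8.33%, background 3.49%) and lower in 3 (3.12%, background 0.852%). Between the NT replicates, 0 of 96 member genes differed by that much in either direction, where the background was 0.876% and 0.589%.

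The 8 genes, named after their values were seen, came from the PAL, 4CL, CCoAOMT, CCR, chalcone isomerase and flavanone hydroxylase groups. Other genes of the pathway did not differ in this way. Between the OsNAC14OX replicates, the PAL genes Os02g0626100, Os02g0626400 and Os04g0518100 differed by 0.00, 0.40 and -0.34 on the log2 scale. The chalcone synthase gene Os11g0530600 differed by 0.30, and no tested CAD gene passed a fold of 2. For PAL, Os02g0626600 stood at 3.99 and 3.68 FPKM in NT and at 26.6 and 1.92 FPKM in OsNAC14OX, Os02g0627100 at 21.3 and 19.1 FPKM against 43.8 and 14.5 FPKM, and Os05g0427400 at 17 and 16.1 FPKM against 31.2 and 14.1 FPKM. The 4CL gene Os08g0448000 stood at 5.03 and 4.74 FPKM in NT and at 17.7 and 3.07 FPKM in OsNAC14OX. In all of them replicate 1 was the highest and replicate 2 the lowest of the 4 libraries. The CCoAOMT gene Os08g0498400 stood at 47.6 and 54.2 FPKM in NT and at 113 and 43.7 FPKM in OsNAC14OX, and the CCR gene Os02g0180700 at 13.2 and 15.1 FPKM against 28.0 and 11.8 FPKM. Among flavonoid genes, the chalcone isomerase domain gene Os06g0203600 stood at 7.94 and 7.95 FPKM in NT and at 31.4 and 4.60 FPKM in OsNAC14OX, and the flavanone 3-hydroxylase-like Os03g0122300 at 12.7 and 12.5 FPKM against 27.7 and 6.12 FPKM. Their NT levels, too, lay between those of the OsNAC14OX replicates. Another PAL gene, Os04g0518400, was high in replicate 1 as well, at 3.9 and 3.53 FPKM in NT and 8.38 and 3.75 FPKM in OsNAC14OX.

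The 3 genes that were lower in replicate 1 were the dirigent-like genes Os11g0179700 and Os10g0334500 and Os12g0259800, described as laccase-25. Os11g0179700 stood at 19.3 and 21.6 FPKM in NT and at 4.12 and 20.5 FPKM in OsNAC14OX, so a single library was low. In a fit without OsNAC14OX replicate 2, replicate 1 alone stands for its group, so the calls added there rest on that library. Without OsNAC14OX replicate 2, limma called 15 member genes, 11 more than with all libraries. The share was 15.6%, against 4.37% of all genes tested in that fit and 0.724% with all libraries. The added genes were Os02g0626600, Os02g0627100 and Os04g0518400 (PAL), Os08g0448000 (4CL), Os08g0498400 (CCoAOMT), Os06g0203600 (chalcone isomerase domain), Os03g0122300 (flavanone hydroxylase) and Os01g0850700 (laccase), all higher except the dirigent-like Os10g0334500 and Os11g0179700 and the CAD Os11g0622800, which were lower. Without OsNAC14OX replicate 1 it called 5 (5.21%, against 1.70% of all genes), the laccase Os11g0641800 being added to the 4.

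**Figure D5:**
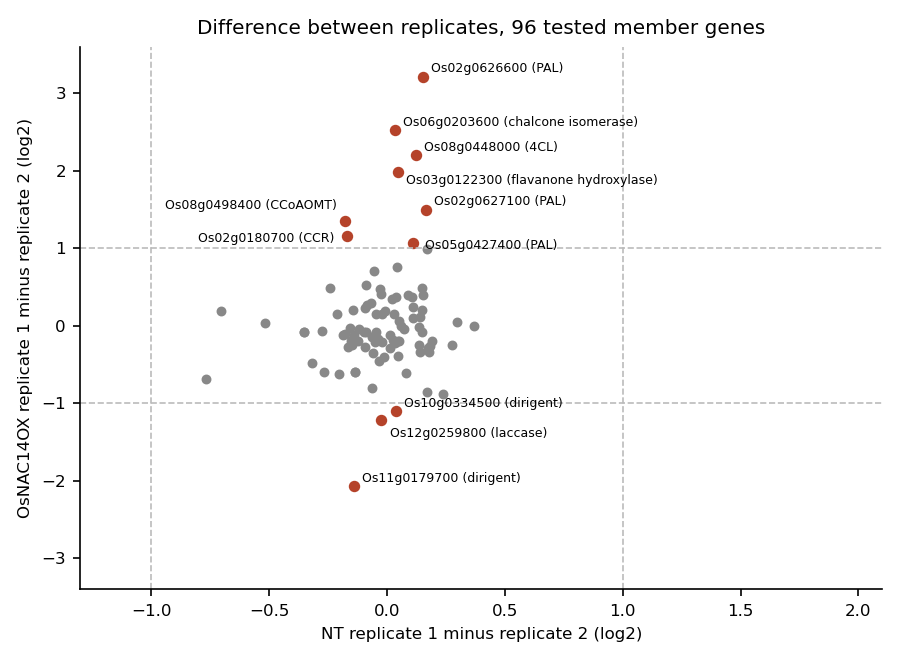
Difference between replicate 1 and replicate 2 on the log2 scale within NT (horizontal) and within OsNAC14OX (vertical) for the 96 tested member genes. Dashed lines mark a fold of 2, and the 11 genes past it in OsNAC14OX are named. The points spread along the vertical axis, up to 3.22 for the PAL gene Os02g0626600, while none passes a fold of 2 on the horizontal axis.

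Markers of other tissues also differed between these replicates. The root gene RCc3 stood at 392 and 390 FPKM in NT and at 182 and 369 FPKM in OsNAC14OX, and the 3 genes described as root-specific summed to 50.1 and 50.5 FPKM in NT and to 22.9 and 50.5 FPKM in OsNAC14OX. RCc3 and the root-specific sum were thus lower in OsNAC14OX replicate 1, the library in which the 8 pathway genes were high. The root-specific genes differed among themselves. Os10g0551800 stood at 28.9 and 29.3 FPKM in NT and at 14.3 and 37.0 FPKM in OsNAC14OX. Os02g0131800, at 20.3 and 20.2 FPKM against 8.31 and 12.7 FPKM, was lower in both OsNAC14OX libraries, as was Os10g0349300, which was below the filter. The part of the root markers in these results was not tested. The leaf markers were high in every library, with 4 Rubisco small subunit genes summing to 6611 and 6093 FPKM in NT and to 10478 and 10821 FPKM in OsNAC14OX and 14 chlorophyll a/b binding genes to between 8732 and 11371 FPKM. The Rubisco gene Os12g0274700, at 1518 and 1512 FPKM in NT and 2915 and 2841 FPKM in OsNAC14OX, passed the adjusted p (0.0498, limma) and missed the fold threshold with a log2 fold change of 0.96. None of these marker genes was called, nor was any of 44 tested genes with anther, pollen or tapetum in their descriptions. All 52 genes so described summed to between 3421 and 4233 FPKM. Most of this came from 1 gene, Os11g0167800, at 2870 and 3144 FPKM in NT and 2661 and 3487 FPKM in OsNAC14OX. At an unadjusted p under 0.05, limma gave 3 Rubisco and 3 chlorophyll a/b binding genes higher, 1 root-specific gene lower, and 2 anther or pollen genes higher and 3 lower. The background was 4.13% of all genes tested higher and 5.53% lower. In whole leaves, fewer cells of a type and less RNA per cell cannot be told apart.

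Other genes of the pathway, which the search leaves out, were taken from lists of their own. Of 30 genes of the shikimate pathway, which supplies phenylalanine, 26 were tested and none was called (median log2 fold change -0.03, smallest adjusted p = 0.61, limma, with 0 genes at an unadjusted p under 0.05). Of 14 genes described as cytochrome P450 hydroxylases of the pathway, 10 were tested and none was called (median 0.15, smallest adjusted p = 0.596, with 0 genes at an unadjusted p under 0.05). One of the 14, described as CYP734A7, matched only through the letters of its number. The cinnamate 4-hydroxylase gene Os02g0467600, which acts just after PAL, stood at 2.02 and 1.91 FPKM in NT and at 4.72 and 1.47 FPKM in OsNAC14OX. In this gene, named after its values were seen, replicate 1 of OsNAC14OX was again the highest and replicate 2 the lowest. At a fold of 2, replicate 1 was higher than replicate 2 in 2 of the 10 tested P450 genes but in only 1 of the 26 shikimate genes, close to the background share for the latter.

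Cellulose synthases of the secondary wall, which is laid down in lignifying cells, were not called (limma, 0 of 3 at an unadjusted p under 0.05). They summed to 98.2 and 116.9 FPKM in NT and to 84.8 and 88.6 FPKM in OsNAC14OX. In 1 of them, Os10g0467800, NT replicate 2 stood apart, with 4.86 and 31.9 FPKM in NT and 4.50 and 5.05 FPKM in OsNAC14OX. The 3 cellulose synthases of the primary wall were not called either (0 of 3 at an unadjusted p under 0.05), and summed to between 619 and 781 FPKM.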

How the data were processed

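Leaf RNA of 2 NT and 2 OsNAC14OX libraries was analyzed. The authors trimmed the reads (single-end, Trimmomatic), aligned them by TopHat to IRGSP-1.0 with RAP-DB gene models and deposited FPKM per transcript. The sources used here name neither the tool that computed FPKM nor the read depths, so no interval from counting error could be made. The labels name a strand-specific library method and the study's methods a TruSeq RNA kit, and whether the counting used strand is not given. A further set of deposited values is log2(FPKM + 1), quantile-normalized across every library of the table, which holds 4 columns of values outside the series that were not used here. Deposited columns with the authors' fold changes and p-values were not used. Gene starts were converted from counting at 0.

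The deposited log2 values of transcripts were compared with limma 3.58.1 in R 4.3.3 (lmFit, eBayes with trend, two-sided). For genes, FPKM were summed over transcripts, 1 was added, and log2 values were quantile-normalized over the 4 libraries. Features that reached an FPKM of 1 in 2 or more libraries were tested, and Benjamini-Hochberg adjustment ran over all of them. No model of counts was fitted. The test was first tested on simulated data. Tables and plots were made in Python 3.11.15 (pandas 2.3.3, matplotlib 3.10.9).

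The members and lists were chosen with earlier results of these data known. Named genes were every called member, in each role group the 3 with the highest mean FPKM and the 2 with the smallest p, the other transcripts of called genes and their neighbours. Genes named outside this rule are values of overlapping or adjacent genes, or were chosen after their values were seen. The result of 1 member gene is not reported here. Alternatives were a filter of 5 FPKM or none, pseudocounts of 0.5 and 0.1, values without quantile normalization, eBayes without trend, a replicate block, fits without each of the libraries, calls without the fold threshold, and calls on the fold with an unadjusted p. No reference table used here paired the gene IDs with names, so names are those of the deposited descriptions, apart from OsNAC14, RCc3 and the cellulose synthases, which were looked up by ID.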

Additional observations from a re-analysis of the deposited data

How the results depend on the processing

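The same 4 member genes were called with no quantile normalization, with pseudocounts of 0.1 and 0.5, with no filter on FPKM and with a variance without trend. A filter of 5 FPKM removed Os10g0113000 and left 3. Among transcripts, no filter left 2 of 4 calls, since Os09t0400100-01 and Os12t0263600-01 had adjusted p of 0.0626 and 0.0589 (limma) over 37972 transcripts. Leaving out each library in turn gave 0 to 11 called transcripts and 0 to 15 called genes. With the replicate block, 0 member transcripts and 0 member genes were called, while 22 and 24 (21.2% and 25%) had an unadjusted p under 0.05, against 8.01% and 8.16% of all tested, and 10 genes were called in all. Libraries with the same replicate number did not deviate together over all features tested. The correlation of the deviations of replicate 1 from the group means was 0.00 over transcripts and -0.01 over genes. This correlation cannot settle whether samples with the same number were grown or prepared together. The 4 called genes and the 4 called transcripts kept their direction under every alternative. Their groups did not overlap in FPKM, so leaving out 1 library could not have reversed them. Both filters, the variance without trend, the replicate block and the unadjusted p leave a log2 fold change as it was. Only the other alternatives could change a direction, so the next count is not a measure of robustness. Of 662 log2 fold changes of 56 named genes and transcripts under alternatives, 594 kept their direction and their side of the threshold and 31 changed direction, in 23 genes that were not called. All but 1 of these changes came from leaving out a library, and the cause was not tested. The exception was Os11g0116300 with no quantile normalization, at -0.024. The ranges of log2 fold changes of these genes when each library was left out were as follows, in order of gene ID: Os01g0528800 (-0.019 to 0.35), Os02g0180700 (-0.21 to 0.95), Os02g0187800 (-0.24 to 0.21), Os02g0611800 (-0.27 to 0.22), Os02g0626100 (-0.10 to 0.27), Os03g0122300 (-0.91 to 1.08), Os03g0184600 (-0.10 to 0.041), Os03g0819600 (-0.038 to 0.24), Os04g0167800 (-0.024 to 0.19), Os04g0518100 (-0.20 to 0.14), Os04g0581000 (-0.00088 to 0.35), Os04g0683700 (-0.0072 to 0.70), Os06g0165800 (-0.15 to 0.0076), Os06g0176850 (-0.13 to 0.46), Os06g0656500 (-0.14 to 0.23), Os07g0148200 (-0.76 to 0.094), Os07g0503600 (-0.46 to 0.24), Os08g0498100 (-0.10 to 0.015), Os08g0498400 (-0.16 to 1.19), Os11g0116300 (-0.094 to 0.14), Os11g0179700 (-2.03 to 0.041), Os11g0530600 (-0.25 to 0.047) and Os12g0115700 (-0.067 to 0.15).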
